A study of Caenorhabditis elegans with 12 samples.

Results

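A group of 94 autosomal genes had higher transcript levels in germlines that lack LIN-54 than in germlines that have it, both when MES-4 was absent and when it was present. The genes were selected by 2 differences of group means on the log2 scale, where 1 stands for a 2-fold change: lin-54; mes-4 minus mes-4, and lin-54 minus wild type, each at least 0.5. Each gene's level was the mean over its probe sets that name no other gene. Of 14722 autosomal genes on the array, within 17085 genes in all, 136 passed both thresholds and 42 of these were left out by symbol, 23 of them msp genes, which encode major sperm proteins. The data were 12 Affymetrix arrays of C. elegans germlines dissected from adult hermaphrodites 24 hr after the fourth larval stage, from the mitotic tip through late pachytene, with 3 arrays for each of 4 genotypes. These were a double mutant that carried lin-54(n3423) together with mes-4(ok2326), written lin-54; mes-4, then mes-4(ok2326) alone, lin-54(n3423) alone and wild type (N2). Every sample pooled many germlines. The mutants were homozygotes from heterozygous mothers that carried a balancer, so maternally supplied LIN-54 or MES-4 could be present early in their lives. The n3423 deletion is described as a null allele. The ok2326 allele lacks a large part of the coding region for the methyltransferase domain and is thought to be null, although a shortened mes-4 RNA is still made.

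LIN-54 is a DNA-binding subunit of the DRM complex, the worm relative of the DREAM complex in flies and mammals, which joins Rb and E2F family proteins to a MuvB core. DRM is best known for repressing germline genes in somatic cells and cell cycle genes, and it can also promote transcription in the germline. MES-4 is a histone methyltransferase that places methyl marks on lysine 36 of histone H3 over genes expressed in the germline, and it is needed for germline survival and for low expression of the X chromosome there.

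The lin-54 probe set read 6.33 to 6.81 in the double mutant, 10.69 to 10.88 in mes-4, 6.32 to 7.76 in lin-54 and 10.78 to 10.86 in wild type, as labelled. The mes-4 probe sets read 9.685, 9.707 and 10.003 in the double mutant and 9.32 to 9.49 in mes-4, against 10.01 to 10.18 over lin-54 and wild type, and check little because of that RNA. Germline markers stood at a median level of 10.58 to 11.11 on every array. The arrays that lack LIN-54 differed among themselves in sperm RNA. Of 42 sperm markers, 23 were the msp genes left out by symbol. The median of the 42 was 8.67, 7.13 and 8.21 on double-mutant arrays 1, 2 and 3, and 6.13 to 6.4 in mes-4. It was 8.72, 6.77 and 7.68 on lin-54 arrays 1, 2 and 3, and 6.21 to 6.31 in wild type. The log2 of the summed sperm signal spanned 12.88 to 15.15 in the double mutant, 11.60 to 11.90 in mes-4, 12.35 to 14.96 in lin-54 and 11.71 to 11.87 in wild type. Between 5 and 7 of the 42 sperm markers lay below a level of 6 on double-mutant arrays, 14 to 17 in mes-4, 2 to 6 in lin-54 and 12 to 17 in wild type. Other markers moved with the loss of LIN-54 as well. The median of 8 oocyte markers was 12.01 to 12.28 in the double mutant against 12.86 to 13.07 in mes-4, and 11.998 to 12.302 in lin-54 against 12.63 to 12.97 in wild type. The log2 of the summed signal of 5 gonadal sheath markers was 9.51 to 9.86 in the double mutant against 10.92 to 11.19 in mes-4, and 8.61 to 9.37 in lin-54 against 10.74 to 11.47 in wild type. Of these, tbh-1 and inx-8 differed by -2.52 and -1.55 (double mutant minus mes-4) and by -3.47 and -2.46 (lin-54 minus wild type), whereas inx-9 differed by 0.27 and -0.40, and lim-7 and ceh-18 by at most 0.21 either way. The part of these cell types in the levels of the selected genes was not tested. In such pooled tissue, fewer cells of a type and less RNA per cell cannot be told apart. Without lin-54 array 1 and double-mutant array 1, which carried the highest sperm signal, 57 of the 94 genes still passed the 2 thresholds.

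Because lin-54 minus wild type and the double mutant minus mes-4 chose these genes, both differences and all counts from them are descriptions and support nothing. The double mutant exceeded mes-4 by a median of 0.75 over the 94 genes (range 0.50 to 5.1), and lin-54 exceeded wild type by a median of 0.66 (range 0.50 to 3.54). The medians over all autosomal genes were 0.045 and 0.051. The difference was larger in the mes-4 background for 60 genes and larger in the wild-type background for 34. It was at least 1 in both backgrounds for 15. All 3 double-mutant arrays lay above all 3 mes-4 arrays for 81 of the 94 genes, as they did for 13.4% of autosomal genes. All 3 lin-54 arrays lay above all 3 wild-type arrays for 81 genes, against 16.8% of autosomal genes, and both held for 73, against 5.17%. At a limma q-value of 0.05, used here only to place the genes among all others, 67 were called higher in the double mutant, relative to mes-4, where 3.06% of autosomal genes were called up and 4.52% down. Likewise 59 were called higher in lin-54 than in wild type, where 3.26% of autosomal genes were called up and 3.53% down. In both comparisons 55 were called, and the share of all autosomal genes called in both was not counted. These counts follow from the selection and are no test of it. The genes just inside the rule were C48B6.9, C04F12.7 and F35E12.6, whose smaller difference was 0.50 for each. Those just outside were R119.3 at 0.49998, ric-19 at 0.497 and T23F11.2 at 0.494.

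**Figure D1:**
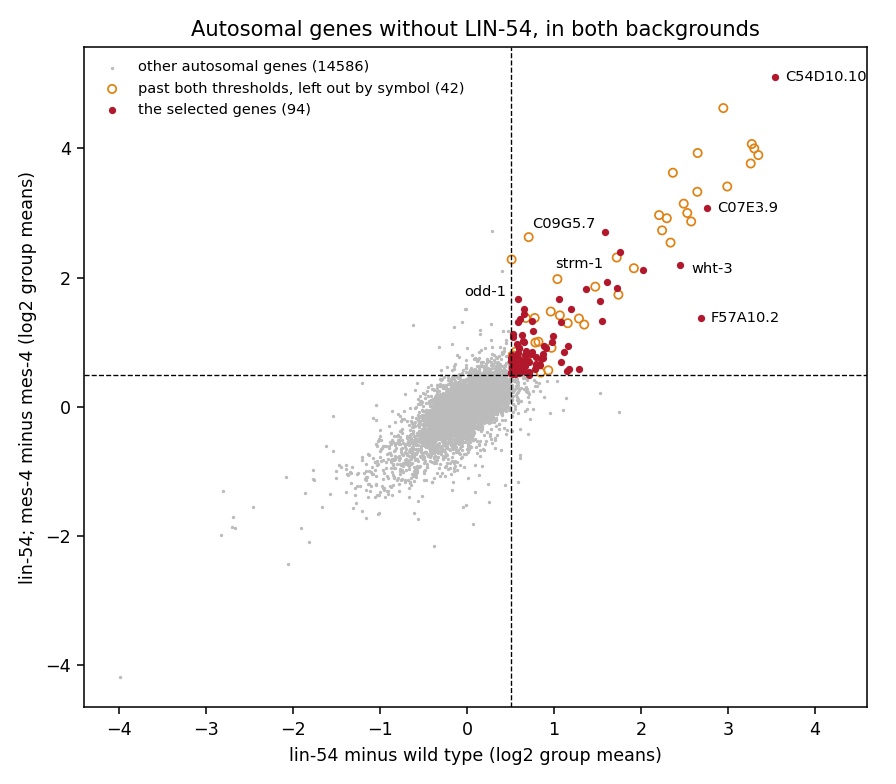
Each point is an autosomal gene, with lin-54 minus wild type on the x axis and the double mutant minus mes-4 on the y axis, both as log2 differences of group means, and dashed lines at the 0.5 thresholds. The 94 selected genes (red) lie past both lines beside 42 genes left out by symbol (open circles), and C54D10.10 is farthest out at 3.54 and 5.1.

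Of the 94 genes, the one with the largest differences was C54D10.10 on chromosome V. Its log2 level was 10.12, 10.84 and 10.53 on the double-mutant arrays and 5.0, 5.44 and 5.76 on the mes-4 arrays. It was 9.1, 8.75 and 8.75 in lin-54 and 5.58, 5.53 and 4.86 in wild type. All 6 arrays without LIN-54 thus lay above all 6 arrays with it. C07E3.9, on chromosome II, read 9.85, 10.16 and 10.18 in the double mutant against 6.73, 6.83 and 7.38 in mes-4. In lin-54 it read 9.70, 9.66 and 9.48, against 6.86, 7.17 and 6.53 in wild type, and neither pair of groups overlapped.

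A pair of membrane transporter genes came next. wht-3, on chromosome III, belongs to the White subfamily of ABC transporters, which export lipids and other small molecules in many animals. Its level was 8.29, 8.11 and 8.66 in the double mutant against 6.13, 6.44 and 5.93 in mes-4. It was 8.23, 8.94 and 8.92 in lin-54 against 5.9, 6.58 and 6.28 in wild type. slc-36.4, on chromosome I, belongs to the family of proton-coupled amino acid transporters. It read 7.59, 7.77 and 8.04 in the double mutant against 5.79, 5.7 and 5.53 in mes-4, and 7.75, 8.24 and 7.81 in lin-54 against 5.69, 6.08 and 5.97 in wild type. The differences of these transporters, between 2.02 and 2.44, were close to equal in both backgrounds.

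C09G5.7 and F57A10.2 differed between the backgrounds in opposite ways. C09G5.7, on chromosome II, read 8.49, 9.39 and 8.98 in the double mutant against 6.14, 6.13 and 6.48 in mes-4, a mean difference of 2.70. It read 8.19, 8.03 and 7.83 in lin-54 against 6.18, 6.66 and 6.46 in wild type, a mean difference of 1.59. F57A10.2, on chromosome V, read 6.78, 6.97 and 7.21 in the double mutant against 5.76, 5.77 and 5.32 in mes-4, a mean difference of 1.37. In lin-54 it read 8.75, 8.66 and 8.57 against 5.92, 5.89 and 6.1 in wild type, a mean difference of 2.69. sup-1, on chromosome III, encodes a small membrane protein known from suppression of an acetylcholine transporter mutant. It read 7.46, 7.97 and 8.02 in the double mutant against 6.1 to 6.25 in mes-4, and 8.26, 7.57 and 7.49 in lin-54 against 6.18 to 6.31 in wild type. Y66D12A.24, also on chromosome III, read 6.98 to 7.12 in the double mutant against 5.57 to 5.82 in mes-4, and 7.15 to 8.10 in lin-54 against 5.98 to 6.25 in wild type.

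**Figure D2:**
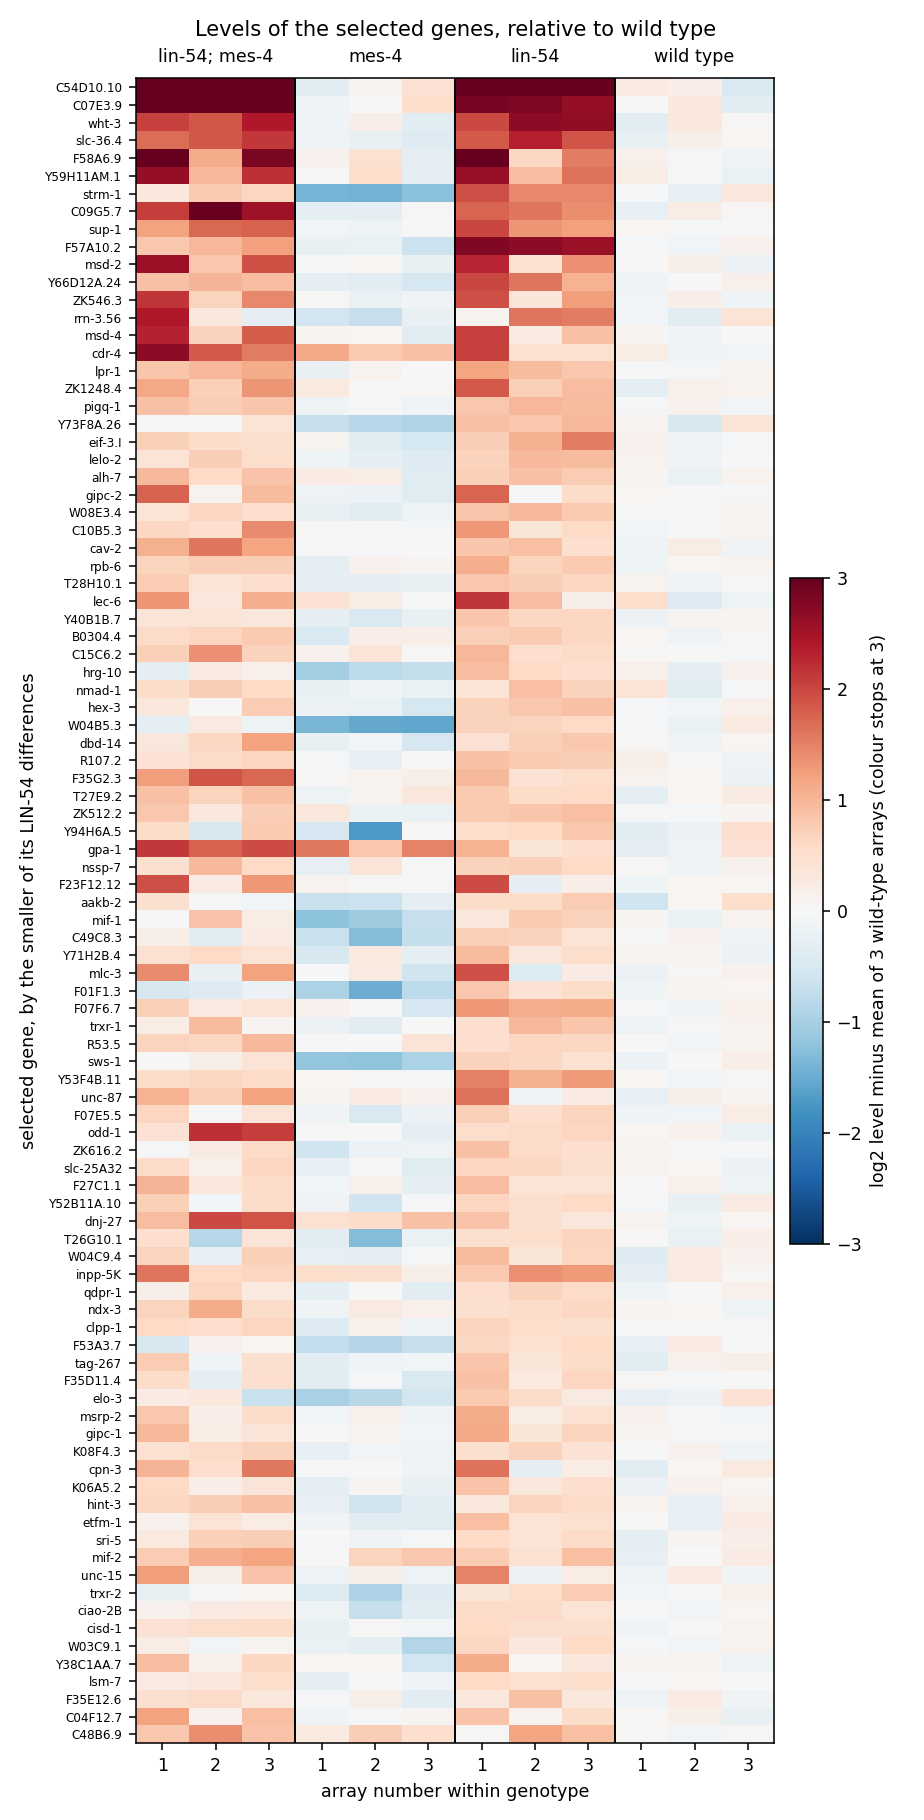
Each row is a selected gene, in order of the smaller of its 2 LIN-54 differences, and each column an array. Colour gives the log2 level minus the mean of the 3 wild-type arrays and stops at 3. Red fills most of the double-mutant and lin-54 columns, and strm-1, W04B5.3, F01F1.3 and sws-1 are blue in mes-4. In each genotype without LIN-54, msd-2 and gipc-2 are palest on array 2, and mlc-3 is lowest there.

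Genes with roles in basic cell functions are given next, picked by role after their values were seen and with no test of the role. pigq-1, whose relatives act in the synthesis of the GPI anchor of membrane proteins, read 10.53, 10.38 and 10.48 in the double mutant against 9.54, 9.59 and 9.53 in mes-4. In lin-54 it read 10.44, 10.63 and 10.60 against 9.58, 9.78 and 9.57 in wild type. Its difference was 0.91 in both backgrounds.

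The selected genes also included rpb-6, lsm-7 and eif-3.I. rpb-6 encodes a subunit that RNA polymerase II shares with the other RNA polymerases. It read 11.74, 11.83 and 11.81 in the double mutant against 10.80, 11.21 and 11.18 in mes-4, and 12.18, 11.75 and 11.87 in lin-54 against 10.92, 11.14 and 11.19 in wild type. lsm-7 encodes a subunit of the LSM rings that act in splicing and mRNA decay. It read 11.42 to 11.69 in the double mutant against 10.90 to 11.16 in mes-4, and 11.62 to 11.77 in lin-54 against at most 11.23 in wild type. For both of these genes the groups did not overlap in either background. eif-3.I, for a subunit of translation initiation factor eIF3, read 8.83 to 9.07 in the double mutant against 7.84 to 8.44 in mes-4, and 9.09 to 9.89 in lin-54 against 8.24 to 8.49 in wild type.

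Genes of mitochondria, iron-sulfur clusters and redox, again picked by role, included clpp-1, slc-25A32, cisd-1, ciao-2B, trxr-1 and trxr-2. clpp-1 encodes the proteolytic subunit of a mitochondrial matrix protease and slc-25A32 a mitochondrial carrier. clpp-1 read 10.46 to 10.61 in the double mutant against 9.58 to 10.12 in mes-4, and 10.44 to 10.64 in lin-54 against 9.91, 10.004 and 9.99 in wild type. slc-25A32 read 10.22 to 10.72 against 9.71 to 10.12, and 10.55 to 10.71 against 9.91 to 10.18, in the same order. cisd-1, for an iron-sulfur protein of the mitochondrial outer membrane, had differences of 0.59 (double mutant minus mes-4) and 0.51 (lin-54 minus wild type). ciao-2B, for a factor that delivers iron-sulfur clusters in the cytosol, had differences of 0.62 and 0.51. The thioredoxin reductases are trxr-1, the cytosolic selenoprotein, and trxr-2, the mitochondrial form. trxr-1 read 7.15, 7.88 and 7.01 in the double mutant against 6.75, 6.59 and 6.92 in mes-4, and 7.45, 7.92 and 7.77 in lin-54 against 6.79, 6.97 and 7.04 in wild type. trxr-2 read 8.38, 8.55 and 8.66 in the double mutant against 8.18, 7.66 and 8.20 in mes-4, and 8.96, 9.11 and 9.36 in lin-54 against 8.5, 8.53 and 8.74 in wild type. Both trxr genes were thus highest in lin-54 on average, and their groups did not overlap in either background.

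Other paralog pairs were selected together. mif-1 and mif-2 encode relatives of macrophage migration inhibitory factor. mif-1 read 9.91, 10.76 and 10.12 in the double mutant against 8.68, 8.82 and 9.21 in mes-4, and 10.24, 10.69 and 10.59 in lin-54 against 9.99, 9.70 and 10.01 in wild type. mif-2 read 8.89, 9.24 and 9.31 in the double mutant against 8.13, 8.81 and 8.95 in mes-4, and 8.91, 8.60 and 9.04 in lin-54 against 7.89, 8.15 and 8.38 in wild type. mif-1 had its lowest levels in mes-4 and mif-2 in wild type, and the groups of mif-2 overlapped in the mes-4 background. Single genes of known function included cav-2 (a caveolin), which read 6.39, 6.94 and 6.52 in the double mutant against 5.26 to 5.32 in mes-4, and 5.84 to 6.23 in lin-54 against 5.21 to 5.55 in wild type. odd-1, for a zinc finger transcription factor of the Odd-skipped family, read 5.17, 6.94 and 6.81 in the double mutant against 4.47 to 4.74 in mes-4, and 5.27 to 5.39 in lin-54 against 4.55 to 4.87 in wild type. Double-mutant arrays 2 and 3 set most of the odd-1 difference of 1.66.

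A second set of selected genes varied widely among the arrays that lack LIN-54. Levels spanned 1 or more within both the 3 double-mutant arrays and the 3 lin-54 arrays for 12 genes, and under 0.5 within both for 36. Of the 12, 9 had their arrays in the order of the sperm marker medians, array 1 above 3 above 2, in both genotypes. Over all 94 genes that order held in both genotypes for 23, or 24.5%, against 4.75% of the 14127 autosomal genes not left out by symbol. The order was read on the same arrays whose means selected the genes, so a high level on array 1 favoured selection. No share was counted for other autosomal genes with as wide a span. These counts are therefore descriptions and no test. Of the 12, 10 were measured only by probe sets whose names mark sequence shared with other transcripts. The same held for 9 of the 36 and 26 of all 94, and such probes can read related transcripts. Names ending in _x_at, rather than _s_at, were those of F58A6.9, Y59H11AM.1, msd-2, msd-4, ZK546.3, F23F12.12 and rrn-3.56 among the 12. Among the 36, only Y40B1B.7 had such a name. The sperm markers include msd-2 and msd-4, and without them the medians of the other 40 kept the same order, 8.67, 7.13 and 8.27 on double-mutant arrays 1, 2 and 3 and 8.87, 6.78 and 7.68 on lin-54 arrays. All 23 msp genes that the rule left out are among those 40, so the markers are not independent of the rule. Their differences ran from 0.58 to 4.07 (double mutant minus mes-4) and from 0.56 to 3.35 (lin-54 minus wild type). The rest of the 40 ran from -0.002 at ssq-4 to 1.008 at ssp-10, and from 0.03 to 0.82 at the same genes. What part sperm RNA has in these values was not tested.

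The 9 genes included msd-2 and msd-4, which encode proteins with a major sperm protein domain. msd-2 read 8.89, 7.15 and 8.24 in the double mutant against 6.11 to 6.4 in mes-4, and 8.63, 6.79 and 7.70 in lin-54 against 6.15 to 6.51 in wild type. msd-4 read 8.28, 6.65 and 7.79 in the double mutant against 5.65 to 6.04 in mes-4, and 8.01, 6.22 and 6.86 in lin-54 against 5.87 to 6.05 in wild type. The groups of both genes did not overlap, although the arrays within them lay over 1.6 apart. gipc-2, for a PDZ domain protein of the GIPC family, read 6.51, 4.85 and 5.69 in the double mutant against 4.37 to 4.59 in mes-4. In lin-54 it read 6.48, 4.72 and 5.3 against 4.70 to 4.81 in wild type, so that lin-54 array 2 fell within the wild-type range. Its paralog gipc-1 had smaller differences, 0.53 in the mes-4 background and 0.71 in the wild-type background, with its highest level on array 1 of each genotype without LIN-54.

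F58A6.9, Y59H11AM.1, ZK546.3 and F23F12.12 followed the same array order. F58A6.9 read 9.39, 6.96 and 8.68 in the double mutant against 5.56 to 6.31 in mes-4, and 8.96, 6.47 and 7.40 in lin-54 against 5.74 to 6.01 in wild type. Y59H11AM.1 read 9.58, 7.93 and 9.13 in the double mutant against 6.66 to 7.48 in mes-4, and 9.54, 7.87 and 8.56 in lin-54 against 6.73 to 7.16 in wild type. Both were among the 12 genes with the largest smaller difference. In the RefSeq annotation F58A6.9 lies within 20 kb of msp-45, and the pseudogene ZK546.3 within 20 kb of msp-152. A gene of the sperm families lay that near for 3 of the 12 genes with wide spans and for 4 of the other 82. The latter include K08F4.3, which lies near msp-37 and msp-38 and spanned 0.25 in lin-54 and 0.23 in the double mutant. The share of all autosomal genes that lie so near was not counted, so this nearness is a description only. rrn-3.56, an rRNA pseudogene, spanned 2.68 among double-mutant arrays in a different order, with 9.49, 7.39 and 6.81.

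Genes known from muscle formed part of this set. mlc-3, for a myosin light chain, read 8.12, 6.47 and 7.91 in the double mutant against 6.09 to 6.96 in mes-4. In lin-54 it read 8.63, 6.29 and 6.95 against 6.53 to 6.82 in wild type, with array 2 below every wild-type array. unc-15, for paramyosin, read 7.12, 6.04 and 6.73 in the double mutant against 5.71 to 6.06 in mes-4, and 7.38, 5.71 and 6.1 in lin-54 against 5.73 to 6.13 in wild type. Its groups overlapped in both backgrounds, as did those of mlc-3. unc-87 and cpn-3 encode calponin-related proteins of the actin filament. unc-87 read 7.32, 6.98 and 7.49 in the double mutant against 6.35 to 6.53 in mes-4, and 7.90, 6.17 and 6.51 in lin-54 against 6.02 to 6.45 in wild type. cpn-3 read 7.46, 6.93 and 8.03 against 6.34 to 6.46, and 8.08, 6.18 and 6.65 against 6.09 to 6.72, in the same order. Both overlapped only in the wild-type background and peaked on double-mutant array 3 but lin-54 array 1. unc-87 spanned 0.50 in the double mutant, so it was not in the set of wide spans. The median of 6 muscle markers, unc-15 among them, was 6.99, 5.96 and 6.83 on the double-mutant arrays and 7.32, 5.59 and 6.24 on the lin-54 arrays. It was 5.91 to 6.45 in mes-4 and 5.96 to 6.31 in wild type. The log2 of the summed muscle signal spanned 8.54 to 9.77 in the double mutant, 8.33 to 8.95 in mes-4, 8.47 to 10.02 in lin-54 and 8.55 to 8.77 in wild type. Among the other muscle markers, the myosin heavy chain gene myo-3 averaged 3.92 in the double mutant, 3.86 in mes-4, 3.98 in lin-54 and 3.90 in wild type. The myosin heavy chain gene unc-54 averaged 6.82, 6.54, 6.94 and 6.63 in the same order, and unc-22 averaged 5.01, 4.93, 4.93 and 4.94. On the X chromosome, tnt-2 averaged 7.54, 6.74, 7.20 and 6.81, and mlc-1 averaged 7.40, 6.53, 6.87 and 6.39. In group means only, these 2 X-linked markers were higher without LIN-54, by 0.80 and 0.88 (double mutant minus mes-4) and by 0.38 and 0.48 (lin-54 minus wild type). The median of the 6 muscle markers on lin-54 array 2 lay below the wild-type range. The part of muscle RNA in the values of mlc-3, unc-15, unc-87 and cpn-3 was not tested.

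**Figure D3:**
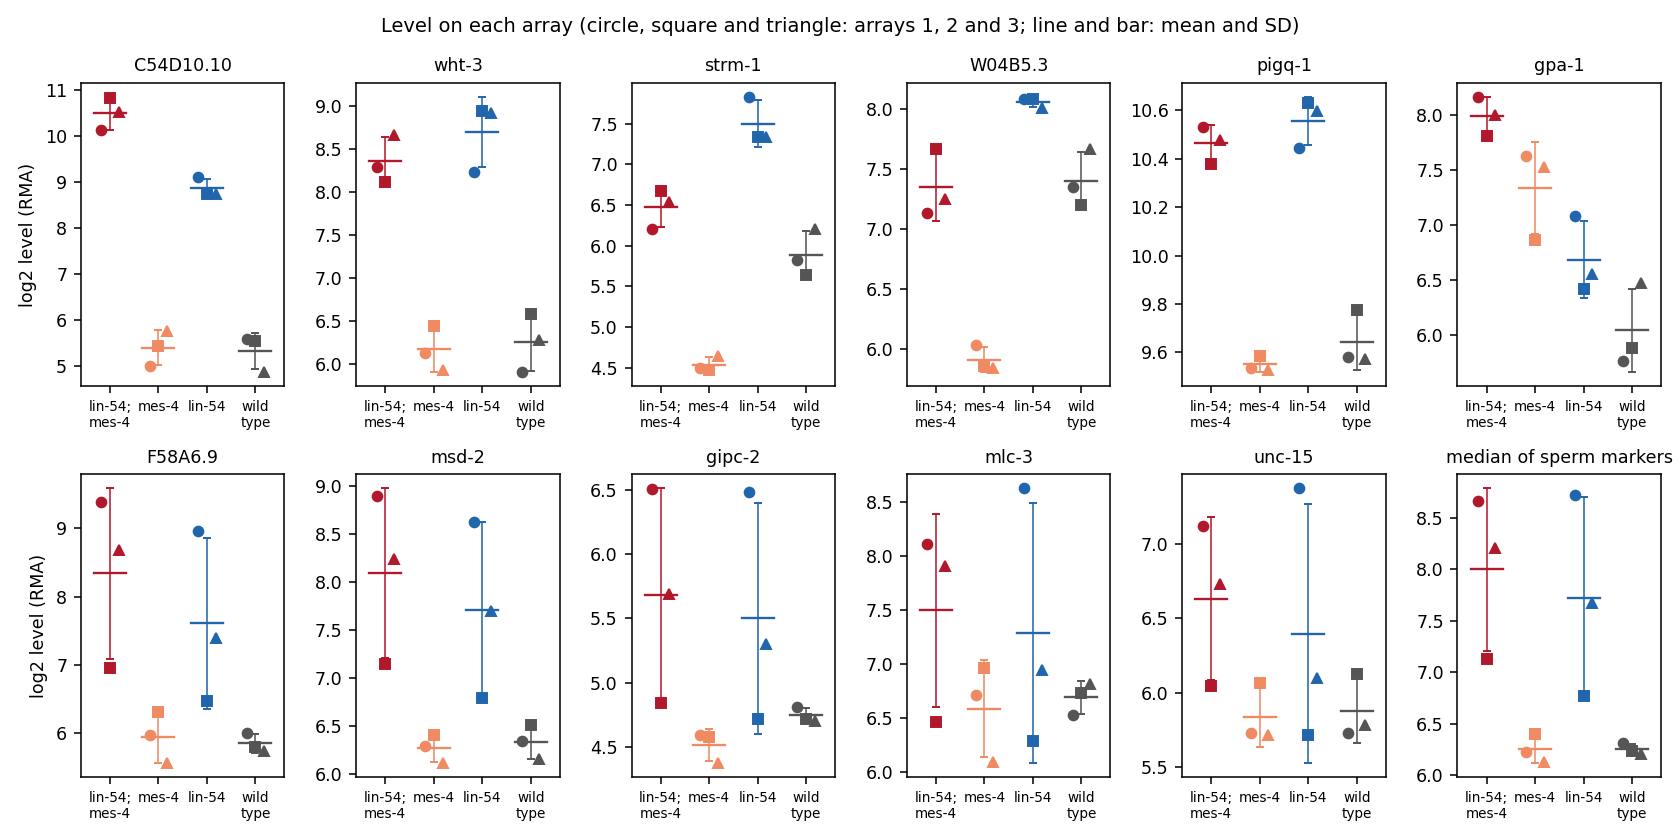
Log2 levels on each array for 11 selected genes and the median of the 42 sperm markers, by genotype; symbols mark array numbers, lines means and bars SDs of 3 arrays, and the y axes do not start at 0. C54D10.10, wht-3, strm-1, W04B5.3 and pigq-1 span under 1 within each genotype. F58A6.9, msd-2, gipc-2, mlc-3 and unc-15 span 1 or more in both genotypes that lack LIN-54, and repeat the order of the sperm markers there.

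The effect of MES-4 on these genes was then tested, since the mean of mes-4 and the double mutant minus the mean of lin-54 and wild type is orthogonal to the 2 differences that chose them. This keeps the test apart from the selection only if all genotypes share 1 spread. Some genes did not: the SD of F58A6.9 was 1.25 in the double mutant and 1.26 in lin-54, against 0.37 in mes-4 and 0.14 in wild type. How far the selection moved the MES-4 effect of such genes was not tested. Without MES-4, 23 of the 94 genes fell and 5 rose (limma across all 17085 genes, q at most 0.05). The 23 genes are 24.5%, against 6.37% of all autosomal genes called down, and the 5 genes are 5.32%, against 3.61% called up. The other 66 genes passed in neither direction. The median MES-4 effect was -0.09 over the selected genes and -0.05 over all autosomal genes, and it was below 0 for 64.9% of the selected genes and 70.4% of autosomal genes. When genes with low signal were left out, 26 of 84 selected genes were called down, against 12.4% of the remaining autosomal genes. When arrays were centred on the autosomal median, 15 of the 94 were called down, against 3.03%. The methods call the 3 samples of each strain biological replicates, without saying whether they came from separate cultures, and p-values measure the spread between these samples.

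Among the genes that fell without MES-4, strm-1 and W04B5.3 had the largest changes and lie near each other on chromosome III with 2 coding genes between them. strm-1 encodes a sterol methyltransferase that alters the sterols from which worm hormones are made. It read 6.2, 6.68 and 6.54 in the double mutant and 4.49, 4.47 and 4.64 in mes-4, against 7.83, 7.34 and 7.33 in lin-54 and 5.83, 5.63 and 6.21 in wild type. Its MES-4 effect was -1.19 (SE 0.12, limma q = 4.86e-05). W04B5.3 read 7.13, 7.67 and 7.25 in the double mutant and 6.03, 5.86 and 5.84 in mes-4, against 8.08, 8.08 and 8.01 in lin-54 and 7.35, 7.20 and 7.66 in wild type. Its MES-4 effect was -1.1 (SE 0.10, limma q = 1.97e-05). In both genes mes-4 arrays were lowest and lin-54 arrays highest, and double-mutant levels of W04B5.3 overlapped with those of wild type.

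F01F1.3, on chromosome III, read 6.88, 6.99 and 7.19 in the double mutant and 6.41, 5.86 and 6.57 in mes-4, against 8.17, 7.79 and 7.91 in lin-54 and 7.22, 7.44 and 7.42 in wild type. Its MES-4 effect was -1.01 (SE 0.12, limma q = 0.000126), and the double mutant stayed below wild type. sws-1, whose product acts with RAD-51 paralogs in homologous recombination, read 7.51, 7.72 and 7.95 in the double mutant and 6.35, 6.32 and 6.58 in mes-4, against 8.22, 8.15 and 8.0 in lin-54 and 7.36, 7.52 and 7.72 in wild type. Its MES-4 effect was -0.76 (SE 0.09, limma q = 0.000147). F57A10.2, described above, had an effect of -1.01 (SE 0.10, limma q = 2.5e-05), with a 1.67 lower level in the double mutant than in lin-54 and 0.35 lower in mes-4 than in wild type. F53A3.7 had an effect of -0.71 (SE 0.11, limma q = 0.00101). Others that fell included hrg-10, named as a heme-responsive gene (-0.74), trxr-2 (-0.60), mif-1 (-0.62) and ciao-2B (-0.34), whose call was lost at q = 0.0592 when arrays were centred on the autosomal median.

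The genes that rose without MES-4 were gpa-1, C54D10.10, dnj-27, F35G2.3 and cdr-4. gpa-1 encodes a G protein alpha subunit. It read 8.16, 7.81 and 7.99 in the double mutant and 7.63, 6.86 and 7.53 in mes-4, against 7.08, 6.41 and 6.56 in lin-54 and 5.77, 5.88 and 6.47 in wild type. Its MES-4 effect was 1.3 (SE 0.17, limma q = 0.000292), and lin-54 and wild type overlapped. C54D10.10 had an effect of 0.85 (SE 0.17, limma q = 0.00485). Its double-mutant arrays exceeded its lin-54 arrays by 1.63 on average, whereas mes-4 and wild type differed by 0.07. dnj-27, for a DnaJ protein of the endoplasmic reticulum, read 6.08, 7.14 and 7.04 in the double mutant and 5.62, 5.7 and 6.03 in mes-4, against 6.02, 5.64 and 5.5 in lin-54 and 5.25, 5.0 and 5.22 in wild type. Its effect was 0.83 (SE 0.17, limma q = 0.00585). F35G2.3 had an effect of 0.54 (SE 0.12, limma q = 0.00801). cdr-4, of the family named for its response to cadmium, had an effect of 0.99 (SE 0.27, limma q = 0.0254), with 9.17, 8.32 and 8.05 in the double mutant and 7.26 to 7.63 in mes-4, against 8.54, 6.93 and 6.94 in lin-54 and 6.35 to 6.70 in wild type. The call of cdr-4 was lost, at q-values of 0.0515 to 0.0711, when any one of 6 arrays was left out, namely wild type 2 or 3, lin-54 2 or 3, mes-4 3 or double mutant 1, with effects of 0.82 to 1.00.

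**Figure D4:**
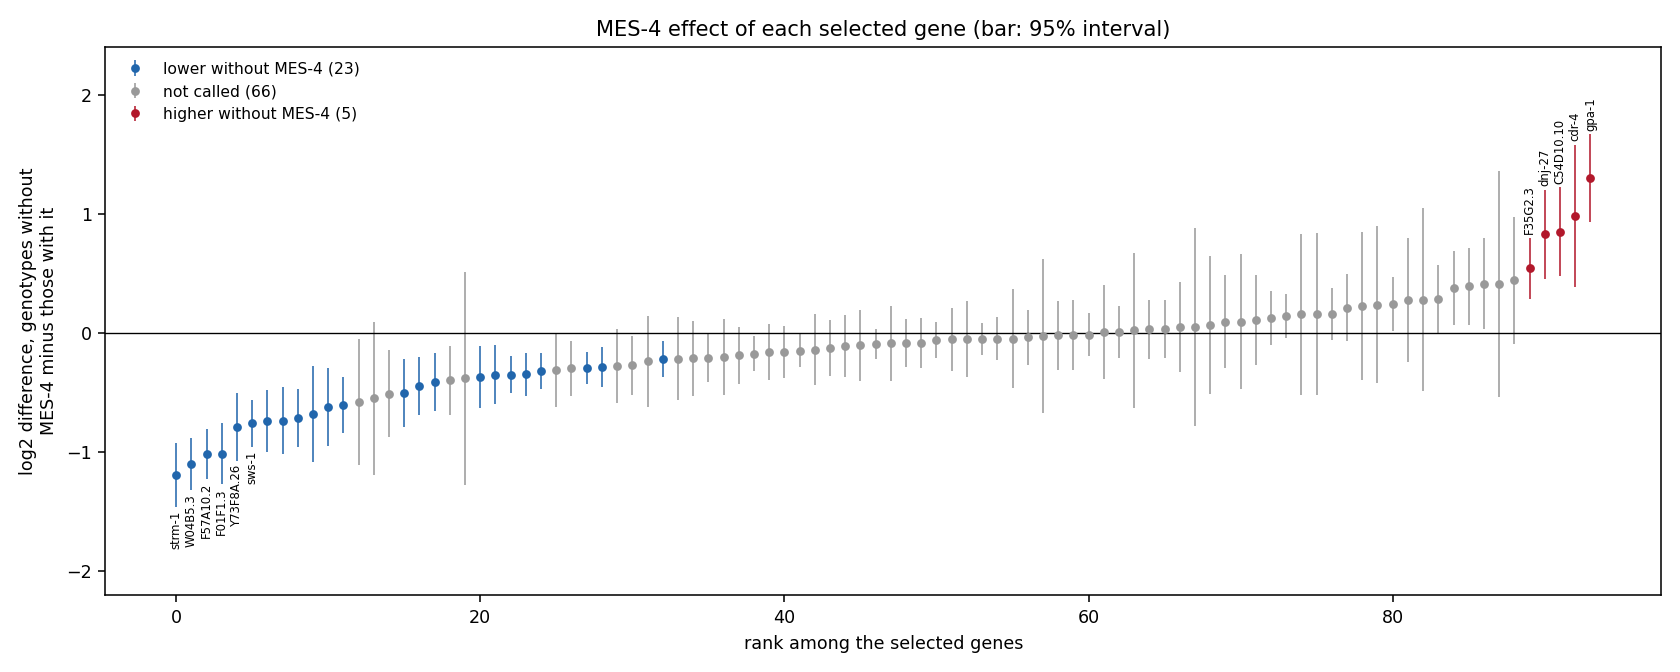
The y axis gives the MES-4 effect of each selected gene, the log2 mean of the double mutant and mes-4 minus that of lin-54 and wild type, with its 95% interval from limma, and the x axis its rank. The 23 genes called lower (blue) reach -1.19 at strm-1, the 5 called higher (red) reach 1.3 at gpa-1, and 66 (grey) were not called.

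The comparisons with and without MES-4 in each background share arrays with the selection and are given as values only. The double mutant minus lin-54 had a median of -0.12 over the 94 genes, against -0.05 over all autosomal genes, and mes-4 minus wild type had a median of -0.12, against -0.05. For the 23 genes that fell, the medians were -0.58 (double mutant minus lin-54) and -0.45 (mes-4 minus wild type). The double mutant was higher than wild type for 89 of the 94 genes. The median difference was 0.62 over the 94, against -0.005 over all autosomal genes. It was at least 0.5 above wild type for 62 and within 0.25 of it for 12. Of those 12 genes, 10 were among the 23 that fell without MES-4, where the double mutant differed from wild type by a median of 0.26. Over the 66 genes not called the median was 0.75, and over the 5 that rose it was 1.95. The double mutant minus wild type equals the mean of the 2 selecting differences plus the MES-4 effect. These counts and medians thus follow from the selection and the calls, and are no test of either.

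The 94 genes lay on all 5 autosomes. Chromosome III held 29 of them, or 30.9%, against 15.3% of autosomal genes on the array. Chromosome I held 21 (22.3% against 16.8%), II 18 (19.1% against 20.5%), IV 14 (14.9% against 18.1%) and V 12 (12.8% against 29.3%). Of the 23 genes that fell without MES-4, 10 were on chromosome III. In the annotation, 5 pairs of selected genes lay within 20 kb of each other. In 2 of these pairs a gene of the msd family lay near one of the gipc family, msd-4 with gipc-1 on chromosome III and gipc-2 with msd-2 on chromosome IV, each with 1 coding gene between. The other pairs were strm-1 with W04B5.3 and nmad-1 with mlc-3 on chromosome III, and nssp-7 with C04F12.7 on chromosome I. nmad-1, reported to encode a DNA adenine demethylase, read 10.48, 10.68 and 10.54 in the double mutant against 9.72 to 9.84 in mes-4, and 10.35, 10.83 and 10.63 in lin-54 against 10.35, 9.57 and 9.90 in wild type. Its levels thus did not repeat those of its neighbor mlc-3 between arrays.

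Of 24 lists of genes by function, 21 held none of the 94 genes, and 87 of the 94 were in no list. Each list held only 11 to 65 of the 14722 autosomal genes. With 94 genes selected from so many, few or none would fall in a list of that size whatever its role. An empty list is thus no result about its function. The sperm list held msd-2, msd-4, gipc-2 and gipc-1. Of its 32 other autosomal genes, 1 was called higher and 2 lower in the double mutant relative to mes-4, and 2 were called higher and 1 lower in lin-54 than in wild type. The mitochondria and redox list held trxr-2. Of its 37 other genes, 4 were higher and 3 lower in the double mutant relative to mes-4, and 6 were higher and 2 lower in lin-54 than in wild type. The muscle list held mlc-3 and unc-15, and of its 24 other genes 1 was higher and 2 lower in each comparison. The cell cycle and oocyte lists held none of the selected genes. Of 65 autosomal genes for mitosis and the cell cycle, 2 were higher and 10 lower in the double mutant relative to mes-4, and 1 was higher and 9 lower in lin-54 than in wild type. Of 34 oocyte and eggshell genes, 1 was higher and 16 lower in the double mutant, and 1 was higher and 15 lower in lin-54.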

How the data were processed

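The authors normalized the arrays by quantile normalization and the robust multi-array average (RMA), and the deposited values are log2 levels per probe set. Control probe sets and probe sets that name several genes or none were left out, and the others were averaged per gene, with symbols updated through RefSeq. All 12 arrays entered 1 limma fit (R 4.3.3, limma 3.58.1) with a mean per genotype, and moderated p-values were converted to Storey q-values over 17085 genes, with calls at 0.05. In simulated data this fit recovered 87.9% of 1.5-fold, 96.0% of 2-fold and 99.1% of 4-fold MES-4 effects, with 4.64% of calls false. The simulated noise was normal, independent between genes and of the same spread in all genotypes. Changes shared by many genes of an array, such as those in sperm markers, were not simulated, so the rates may differ in the real data. The selected genes and lists were chosen with earlier results of these data known. Genes were named if among the 12 with the largest smaller difference, up to 4 per list, the 6 most significant per direction of MES-4 effect, or the 3 on either side of the rule. Genes named beyond this were chosen after their values were seen. Alternatives were Benjamini-Hochberg adjustment, other choices of probe sets, a filter on low signal, centring, a replicate block, other thresholds and leaving out each array. The number of arrays limits precision. Promoter sequences were not analysed here.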

Additional observations from a re-analysis of the deposited data

How the results depend on the processing

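Leaving out each array in turn gave between 18 fewer and 19 more selected genes than 94, 17 to 22 called down and 4 to 6 called up without MES-4, and a median MES-4 effect of -0.14 to -0.08. Without lin-54 array 1 the rule selected 76 genes, 66 of them among the 94. Without that array and double-mutant array 1, an alternative chosen after seeing the data, it selected 71, of which 57 were among the 94, and 9 rather than 5 of the 94 were called up without MES-4. A rule threshold of 0.4 selected 180 genes and of 0.6 selected 49. Centring each array on the autosomal median left 65 genes past the rule, and 15 rather than 23 of the 94 were called down. The most significant probe set in place of the mean selected 102 genes, and probe sets of unshared type selected 67. Deviations of same-numbered arrays correlated at -0.04 to 0.38 (median 0.12, against -0.07 for other pairs). Of 12 arrays, 4 correlated best with their own number in each other genotype. The methods state that the genotypes were collected and processed in parallel, but the sample titles do not say that a number marks a shared batch. The main fit therefore did not take the numbers as pairs, and whether they mark shared batches was not tested. A replicate block gave 25 called down and 6 up. The counts with arrays left out and with the block are given without the share of all autosomal genes called under the same setting. They are therefore no result about the selected genes. None of the 28 genes called in the MES-4 effect changed direction. Of these, 19 kept their call under every setting that measured them, and 9 lost it under at least 1, namely ciao-2B, Y66D12A.24, lelo-2, elo-3, F07F6.7, cdr-4, T28H10.1, hex-3 and ZK616.2. The causes were not tested.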
